A study of Mus musculus with 40 samples.

Results

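The genes described here are the epidermal growth factor (EGF) receptor and the genes that act directly with it: the receptors Egfr, Erbb2 and Erbb3, the receptor inhibitor Errfi1, and the ligands Hbegf, Tgfa, Btc, Areg and Egf. They were chosen by name, with earlier results of these data known. All 9 of 9 were found by symbol among the 21500 genes of the count table. All 9 passed the filter on low counts, which left 13993 genes for the tests. They were measured in liver RNA of 20 male C57BL/6J mice, 10 in each group. Both groups ate CDAA-HFD, a choline-deficient diet of defined amino acids in which fat supplies 60% of the energy and methionine makes up 0.1%, from 8 weeks of age. This diet is used to produce fatty liver with inflammation and scarring. The CDAA-HFD mice (numbered 31 to 40) had no added compound. The BLT1i mice (numbered 71 to 80) had the diet alone for 4 weeks and then the diet with BLT1i at 90 mg/kg for 8 weeks. All livers came from mice aged 20 weeks. BLT1i is not spelled out in the labels; the name generally stands for an inhibitor of the leukotriene B4 receptor 1, and the titles of these mice carry the code L_286 without explanation. No mice on another diet were analysed here, so each difference is between diet with compound and diet alone.

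The EGF receptor is a tyrosine kinase of the cell surface that is abundant on hepatocytes. Its ligands are made as membrane-bound precursors and released by proteases of the ADAM family, after which receptors pair and signal through RAS, MAP kinases and PI3 kinase. Erbb2 binds no ligand of its own and serves as a partner, and Erbb3 binds neuregulins and has very weak kinase activity, so that both work as members of receptor pairs. In liver this family is known for its part in hepatocyte growth after injury or partial removal of the organ. Hbegf and Errfi1 are also known as genes that many cells transcribe rapidly when MAP kinases are active.

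Sequencing depth was similar in the groups, with total counts of 20994073 to 27456678 in the CDAA-HFD group and 18467060 to 26078285 in the BLT1i group. Levels are CPM (counts scaled to library size with TMM factors), as mean ± SD over 10 mice. Each mouse correlated with the median mouse at 0.991 to 0.996. Hepatocyte markers were abundant in all livers: the 5 of 6 matched markers summed to 42541 to 51030 CPM in the CDAA-HFD group and 43111 to 52244 CPM in the BLT1i group, and 0 of the 5 passed the test. BLT1i mouse 74 carried transcripts of pancreas acinar cells, with 149 CPM over 5 markers against at most 6.76 CPM in any other mouse, so results are also given without it. The mouse numbers run in separate blocks by group, and any effect of order of handling cannot be told apart from treatment. In whole liver RNA, fewer cells of a type and less RNA per cell cannot be told apart.

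Of the 9 genes, 3 rose with BLT1i (Hbegf, Errfi1 and Erbb3), 0 fell and 6 did not pass the test (edgeR quasi-likelihood test with Benjamini-Hochberg adjustment over all tested genes, adjusted p of at most 0.05). Over all tested genes 5.63% passed, 3.65% higher and 1.98% lower (511 and 277 genes). The split of all calls moved with the scaling, to 443 higher and 401 lower with upper-quartile factors and 391 and 540 with library totals, where 3 and 2 of the 9 genes passed, all higher. The median log2 fold change was 0.12 for the 9 genes and -0.01 for all tested genes. Without mouse 74 the same 3 genes passed, with log2 fold changes of 0.84 for Hbegf (adjusted p = 7.18e-05), 0.30 for Errfi1 (adjusted p = 0.0231) and 0.22 for Erbb3 (adjusted p = 0.0282). Hbegf had the widest difference of the 9 genes, at 0.84 against at most 0.28 for the others, and its group separation is visible in the plot of values by mouse.

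**Figure D1:**
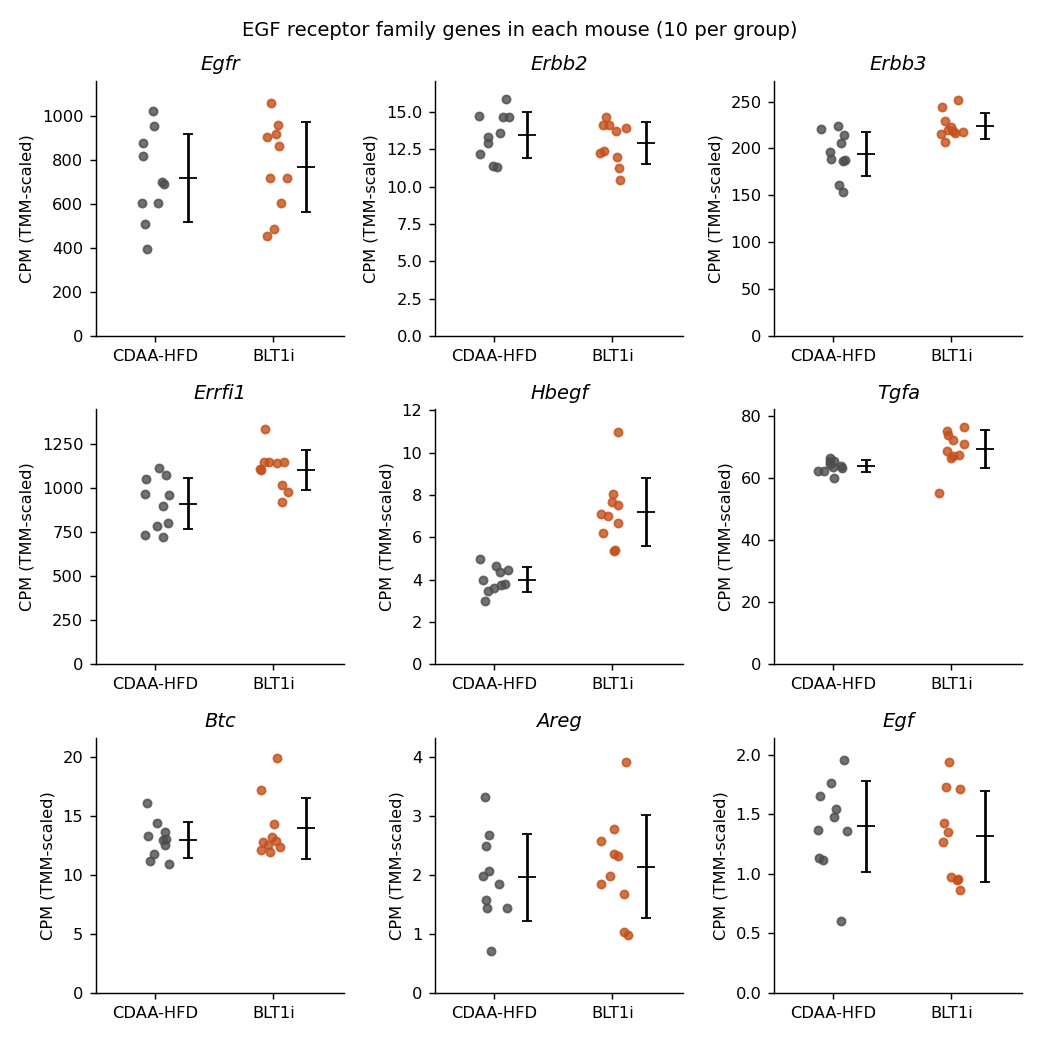
Level of each of the 9 genes in every mouse, in TMM-scaled CPM on linear axes that start at 0; points are mice (grey CDAA-HFD, orange BLT1i), and the bar beside them is the mean with SD over 10 mice. Hbegf is the gene whose groups do not overlap (at most 4.99 against at least 5.36 CPM), while Egfr ranges from 394 to 1059 CPM across mice and its groups overlap.

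Promoter sequences are shown for Errfi1, a member that rose, for Areg, a member that shares its motif and did not pass the test, and for Egfr. RefSeq windows of mouse build GRCm38.p6 were searched for 7 of the 9 genes, in 9 windows. The search covered the 250 bases upstream of the annotated start. Hbegf and Erbb3, which both rose, were not searched. The inhibitor Errfi1 and the ligand Areg each held the full cyclic AMP response element TGACGTCA, shown in capitals, which 1.55% of the 32851 windows of all genes hold on either strand. In Errfi1 its first base lay 51 bases before the start, in the window at chr4:150854820-150855069 on the plus strand. In Areg it lay 61 bases before the start, in the window at chr5:91139349-91139598 on the plus strand. The window of the receptor Egfr, at chr11:16751953-16752202 on the plus strand, held none of the motifs searched.
Errfi1: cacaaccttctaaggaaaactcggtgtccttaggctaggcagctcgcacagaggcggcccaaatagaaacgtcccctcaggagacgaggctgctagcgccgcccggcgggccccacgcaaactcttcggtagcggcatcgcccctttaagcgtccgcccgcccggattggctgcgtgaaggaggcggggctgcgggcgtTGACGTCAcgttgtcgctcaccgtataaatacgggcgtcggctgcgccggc
Areg: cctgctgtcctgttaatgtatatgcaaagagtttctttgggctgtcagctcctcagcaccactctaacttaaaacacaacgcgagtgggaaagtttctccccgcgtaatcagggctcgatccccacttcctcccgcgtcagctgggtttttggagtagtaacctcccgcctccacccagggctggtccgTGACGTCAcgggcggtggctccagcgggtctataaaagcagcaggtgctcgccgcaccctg
Egfr: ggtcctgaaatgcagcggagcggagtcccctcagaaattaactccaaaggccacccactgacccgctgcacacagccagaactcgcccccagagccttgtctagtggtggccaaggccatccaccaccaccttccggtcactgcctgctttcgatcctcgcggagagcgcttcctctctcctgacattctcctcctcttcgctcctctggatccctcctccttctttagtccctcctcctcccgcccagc

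The motifs searched on both strands were the AP-1 site TGANTCA (in 6.75% of all windows), the cyclic AMP response element (1.55%), its shorter core TGACG (17.8%, which overlaps the full element), the EGR site GCGNGGGCG (4.70%) and the CArG box (1.47%). No window of the 7 searched genes held an AP-1 site, an EGR site or a CArG box. This result does not cover Hbegf and Erbb3. A window of a second annotated Errfi1 start, at chr4:150853546-150853795, held none of the motifs. The core TGACG was also present in Areg at 115 bases, outside its full element, in Btc at 113 bases and in Erbb2 at 171 bases before the start. These matches describe letters in the windows and show no binding.

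Among the receptors, Egfr had the highest level per length (48 to 119 rounded FPKM against 22 to 32 for Erbb3 on the diet alone), and it varied more between mice than between groups. On the diet alone the lowest, median and highest mice stood at 394, 695 and 1020 CPM, and with BLT1i at 456, 789 and 1059 CPM. The ranges overlapped almost completely, and 7 of 10 BLT1i mice lay above the CDAA-HFD median. The means were 716 ± 199 and 768 ± 205 CPM, a log2 fold change of 0.10 ± 0.18 (SE; 95% confidence interval -0.27 to 0.47; adjusted p = 0.817). The interval includes a rise as large as 0.47 and a fall as large as -0.27 on the log2 scale.

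The spread of Egfr between mice was far above counting error. The coefficient of variation was 27.8% in the CDAA-HFD group and 26.7% in the BLT1i group, against 0.767% and 0.761% from counting alone, and the highest mouse held 2.59 and 2.32 times the level of the lowest. The within-group SD on the log2 scale was 0.42, at percentile 95.1 of all tested genes. Of the other 8 members, Areg alone had a higher percentile (98.8), and at its low counts counting error made up a larger share of the spread.

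Erbb2, the partner receptor without a ligand, was low and did not differ detectably. CDAA-HFD mice spanned 11.3 to 15.8 CPM with a median of 13.5, and BLT1i mice 10.4 to 14.6 CPM with a median of 13.1. The log2 fold change was -0.06 ± 0.07 (95% confidence interval -0.21 to 0.08; adjusted p = 0.695). The groups overlapped, with 5 of 10 BLT1i mice above the CDAA-HFD median.

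Erbb3, the neuregulin receptor, rose modestly. The CDAA-HFD livers held 154 to 224 CPM (median 193), and the BLT1i livers 207 to 252 CPM (median 219). All 10 BLT1i mice lay above the CDAA-HFD median, but only 3 lay above the highest CDAA-HFD mouse, and the BLT1i mice were the more tightly grouped. The means were 194 ± 23.6 and 224 ± 13.9 CPM, a 1.16-fold difference (log2 fold change 0.21 ± 0.06, 95% confidence interval 0.09 to 0.33; edgeR adjusted p = 0.0336). The call lay close to the threshold: it was lost without any of mice 33, 34, 35, 37, 73, 76 and 80 (adjusted p of 0.0515 to 0.0683) and with library totals in place of TMM (adjusted p = 0.0501), with the same direction each time. It was also lost on the deposited FPKM values (adjusted p of 0.0601 to 0.0683).

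Errfi1 encodes an adaptor, also called MIG6, that binds the activated EGF receptor kinase and blocks it. Levels on the diet alone ran from 726 through a median of 930 to 1116 CPM, and with BLT1i from 921 through 1128 to 1335 CPM. Of the BLT1i mice, 9 of 10 lay above the CDAA-HFD median and 5 above the highest CDAA-HFD mouse, so the groups overlapped. The means were 912 ± 146 and 1106 ± 114 CPM, a 1.21-fold rise (log2 fold change 0.28 ± 0.08, 95% confidence interval 0.11 to 0.44; edgeR adjusted p = 0.0408). The rise kept its direction without any 1 mouse, but its adjusted p rose above 0.05 without any of mice 31, 32, 33, 34, 35, 71, 75, 76, 77, 78, 79 and 80 (0.0512 to 0.0822).

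Hbegf encodes heparin-binding EGF-like growth factor, a ligand of EGFR and ERBB4, and rose in the BLT1i mice. In the CDAA-HFD group the lowest, median and highest levels were 3.01, 3.90 and 4.99 CPM, and in the BLT1i group 5.36, 7.08 and 10.97 CPM. Every BLT1i mouse lay above every CDAA-HFD mouse, a separation that 0.422% of all tested genes showed in this direction. The means were 4.01 ± 0.603 and 7.20 ± 1.602 CPM, a 1.79-fold rise (log2 fold change 0.84 ± 0.11, 95% confidence interval 0.61 to 1.07; edgeR adjusted p = 3.33e-05). The level was low, at 68 to 138 counts per CDAA-HFD mouse and 99 to 241 counts per BLT1i mouse. The call held without each of the 20 mice in turn, with adjusted p of 1.83e-05 to 0.000109. BLT1i mouse 75 was the highest, and the next mouse stood at 8.03 CPM.

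Tgfa encodes transforming growth factor alpha, an EGFR ligand that hepatocytes make, and was the most abundant of the 5 ligands per length. Its level was narrowly held on the diet alone, at 60.1 to 66.6 CPM (median 63.8), and ranged from 55.2 to 76.3 CPM (median 69.9) with BLT1i. In BLT1i mice 8 of 10 values lay above the highest CDAA-HFD mouse, and mouse 76 lay below the lowest. The log2 fold change was 0.12 ± 0.04 (95% confidence interval 0.03 to 0.21), and the edgeR adjusted p of 0.104 missed the threshold. Without mouse 76 the difference was 0.15 and passed (adjusted p = 0.00877), so its side of the threshold depends on that mouse.

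Btc, betacellulin, is a ligand of EGFR and ERBB4. The CDAA-HFD group ranged from 10.96 to 16.1 CPM with a median of 13.04, and the BLT1i group from 11.99 to 20.0 CPM with a median of 12.9. The medians were nearly equal, and BLT1i mice 72 and 78 (20.0 and 17.3 CPM) were the highest of all. The log2 fold change was 0.10 ± 0.09 (95% confidence interval -0.08 to 0.28; adjusted p = 0.586).

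Areg, amphiregulin, is an EGFR ligand that immune and epithelial cells release in damaged tissue. Levels of 0.714 to 3.33 CPM (median 1.92) on the diet alone compared with 0.975 to 3.92 CPM (median 2.15) with BLT1i, from 17 to 83 counts per mouse. The groups overlapped throughout. The log2 fold change was 0.13 ± 0.24 (95% confidence interval -0.35 to 0.62; adjusted p = 0.815), and the sign turned on the rounded FPKM values, at -0.10 with 1 added, and without mouse 72, at -0.00126. The coefficients of variation of 37.9% and 40.4% compare with 14.6% from counting alone in CDAA-HFD mice.

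Egf, the ligand that names the family and is made mainly by kidney and salivary gland, was barely present. It reached 0.605 to 1.95 CPM (median 1.43) in the CDAA-HFD group and 0.864 to 1.94 CPM (median 1.31) in the BLT1i group, from 14 to 54 counts per mouse. The groups overlapped, and the log2 fold change was -0.09 ± 0.18 (95% confidence interval -0.46 to 0.28; adjusted p = 0.839). Of the 4 kidney tubule markers, 1 was at 0 in every mouse and their sum was at most 0.134 CPM.

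**Figure D2:**
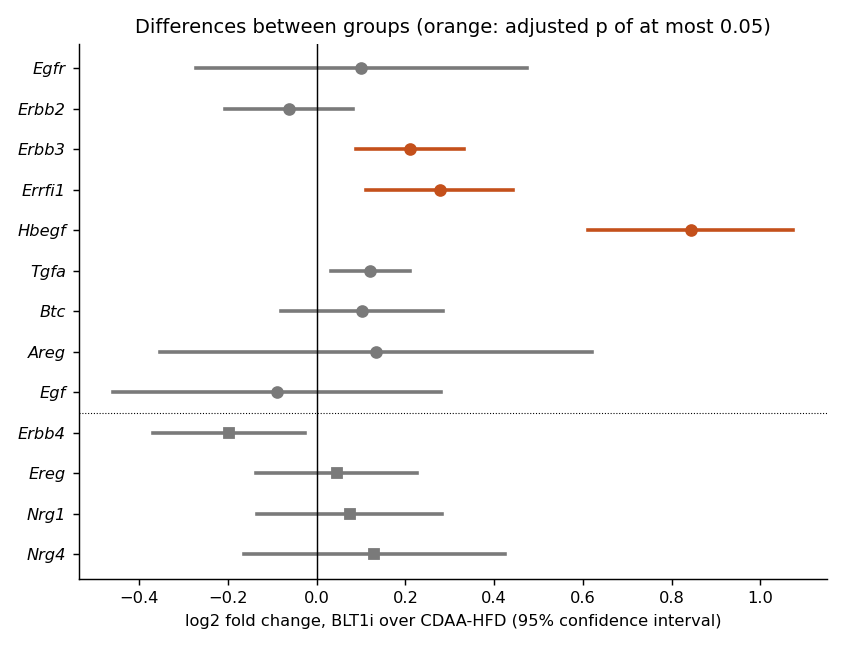
Log2 fold change of BLT1i over CDAA-HFD from the edgeR fit, with 95% confidence intervals, for the 9 genes (circles) and, under the dotted line, the 4 tested receptors and ligands of the same family outside the set (squares); orange marks an adjusted p of at most 0.05. Hbegf lies at 0.84, Errfi1 at 0.28 and Erbb3 at 0.21, and the interval of Erbb4 lies below 0 without passing after adjustment.

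Levels of different genes can be compared only per length, for which the deposited FPKM values, rounded to whole numbers, were used. In CDAA-HFD mice Errfi1 was highest at 229 to 360, followed by Egfr at 48 to 119, Erbb3 at 22 to 32, Tgfa at 11 to 13 and Btc at 3 to 4, with no overlap between these neighbours. Erbb2 was listed at 2 in every CDAA-HFD mouse, Hbegf at 1 in every one and Areg at 0 to 2, so Erbb2 lay above Hbegf and Areg overlapped both. Egf was listed at 0 in every mouse. In BLT1i mice the order was the same at the top, with 295 to 401 for Errfi1, 57 to 113 for Egfr, 30 to 36 for Erbb3, 10 to 15 for Tgfa and 3 to 6 for Btc. Hbegf there reached 1 to 3 and overlapped Erbb2 at 1 to 2.

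The remaining receptors and ligands of the family showed no call: of 7, 4 could be tested and 0 passed, with a median log2 fold change of 0.06. Erbb4, the other neuregulin receptor, was at 21.3 ± 2.47 CPM in the CDAA-HFD group and 18.6 ± 2.93 CPM in the BLT1i group (log2 fold change -0.20 ± 0.08; adjusted p = 0.176). Nrg4, a neuregulin that binds ERBB4, was at 10.92 ± 2.65 and 12.01 ± 2.77 CPM (0.13 ± 0.14; adjusted p = 0.679). Nrg1, a ligand of ERBB3, was at 38.3 ± 6.66 and 40.3 ± 6.46 CPM (0.07 ± 0.10; adjusted p = 0.751) and Ereg, epiregulin, at 5.02 ± 0.732 and 5.17 ± 0.654 CPM (0.05 ± 0.09; adjusted p = 0.834). Epgn, Nrg2 and Nrg3 were too low to test.

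Among genes that shed or mature the ligands, 2 of 11 tested fell (18.2%, against 1.98% of all genes) and 0 rose. The list median was -0.02, and the list was chosen with earlier results of these data known. Adam15, a membrane protease, fell from 44.4 ± 3.35 to 38.2 ± 3.13 CPM (log2 fold change -0.22 ± 0.05; edgeR adjusted p = 0.0107). Adam8, a protease known mainly from leukocytes, fell from 116 ± 12.5 to 95.5 ± 11.4 CPM (-0.29 ± 0.07; edgeR adjusted p = 0.0134). The proteases best known for releasing EGFR ligands did not pass: Adam10 had a log2 fold change of -0.06 ± 0.03 (adjusted p = 0.333) and Adam17 of -0.07 ± 0.04 (adjusted p = 0.334). Macrophage markers summed to 1981 to 2838 CPM in the CDAA-HFD group and 2087 to 2792 CPM in the BLT1i group with 0 of 6 called, and neutrophil markers to 4.58 to 8.01 and 3.92 to 7.27 CPM with 0 of 5 called. Their part in the falls of Adam8 and Adam15 was not tested.

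Downstream of the receptors, 0 of 29 adaptors and kinases passed, with a list median of 0.01. The lowest p values belonged to Pik3r1, the regulatory subunit of PI3 kinase (log2 fold change -0.14 ± 0.05; adjusted p = 0.0764), and Rasa1, a RAS-inactivating protein (-0.09 ± 0.03; adjusted p = 0.0997). Pik3r1 passed without mouse 77, at -0.16 (adjusted p = 0.0474). Both passed under upper-quartile scaling, at adjusted p of 0.0488 and 0.0497, and with library totals, at 0.0376 and 0.0397. Of 18 negative regulators of the receptors, such as ubiquitin ligases and phosphatases, 0 passed, with a median of -0.02. Cblc, an epithelial ubiquitin ligase for EGFR, was at 24.3 ± 3.22 and 27.8 ± 1.93 CPM (0.19 ± 0.07; adjusted p = 0.0972) and Ptpn1, a tyrosine phosphatase, at 84.54 ± 5.59 and 79.01 ± 3.40 CPM (-0.10 ± 0.04; adjusted p = 0.132). Cblc passed with limma-voom (adjusted p = 0.0434) and Ptpn1 with library totals (adjusted p = 0.0315).

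Of 13 MAP kinase feedback genes, 1 fell (7.69%, against 1.98% of all genes) and 0 rose, with a median of 0.07. Earlier results of these data were known when this list was chosen. Dusp2, a nuclear phosphatase known mainly from lymphocytes, fell from 3.10 ± 0.486 to 2.02 ± 0.356 CPM (log2 fold change -0.62 ± 0.11; edgeR adjusted p = 0.00126). Dusp5 had a log2 fold change of 0.22 ± 0.07 (adjusted p = 0.0504), Dusp4 of 0.32 ± 0.10 (adjusted p = 0.0553) and Dusp8 of 0.31 ± 0.10 (adjusted p = 0.0835). With DESeq2 all 3 passed as higher (adjusted p = 0.0271 for Dusp5, 0.0231 for Dusp4 and 0.0438 for Dusp8). The fall of Dusp2 was lost on the rounded FPKM values, where it was listed at 0 to 2 (adjusted p of 0.120 to 0.209 with limma-trend), with the same direction. Dusp5 passed without any of mice 35, 37, 40, 71 and 77 (adjusted p of 0.0159 to 0.0458), Dusp4 without any of mice 35, 40, 77 and 79 (0.0249 to 0.0419) and Dusp8 without mouse 34 (0.0116). Markers of T cells and innate lymphoid cells summed to 178 to 232 CPM in the CDAA-HFD group and 195 to 259 CPM in the BLT1i group, with 1 of 9 higher, Cd8a (1.63-fold, edgeR adjusted p = 0.0105); its relation to Dusp2 was not tested.

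Immediate early genes, which cells transcribe within minutes of a stimulus, rose in the same livers as Hbegf. Of 22 tested, 13 rose (59.1%, against 3.65% of all genes) and 0 fell, with a median log2 fold change of 0.53. The list was chosen with earlier results of these data known, which can raise this share. Egr1 rose 2.82-fold (edgeR adjusted p = 5.82e-05), Ccn1 2.01-fold (adjusted p = 3.01e-06), Zfp36 1.68-fold (adjusted p = 6.69e-05) and Jun 1.64-fold (adjusted p = 1.04e-05). The mean log2 CPM of Fos, Fosb, Jun, Junb, Egr1 and Ier2 was 5.10 to 6.49 in the CDAA-HFD group and 6.28 to 7.31 in the BLT1i group. BLT1i mouse 75 had the highest score and the highest Hbegf level, and CDAA-HFD mouse 40 (score 6.49) the highest of both within its group. The lowest values fell in different mice. In the CDAA-HFD group mouse 33 had the lowest score (5.10) and mouse 37 the lowest Hbegf level (3.01 CPM). In the BLT1i group mouse 71 had the lowest score (6.28) and mouse 77 the lowest Hbegf level (5.36 CPM).

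With this score of 6 genes as a covariate, 0 of the 9 genes passed. Hbegf then had a log2 fold change of 0.28 ± 0.14 (edgeR adjusted p = 0.468), Errfi1 of 0.08 ± 0.13 (adjusted p = 0.894) and Erbb3 of 0.14 ± 0.10 (adjusted p = 0.675), and Egfr turned to -0.031. The fit lost most calls of the whole table as well, with 78 genes left, and the score itself differs between the groups, with means of 5.67 and 6.74. Because score and group move together, this fit cannot tell them apart. The part of the immediate early genes in the rise of Hbegf was not tested.

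Targets of the nuclear receptors CAR and PXR, which respond to many drugs, rose in the same livers. Of 9 tested, 7 rose (77.8%, against 3.65% of all genes) and 0 fell, with a median log2 fold change of 0.52. This list was also chosen with earlier results of these data known, which can raise the share. Cyp3a11 rose 2.70-fold (edgeR adjusted p = 1.63e-13), Cyp2c55 3.80-fold (adjusted p = 1.15e-08), Ces2a 2.36-fold (adjusted p = 1.78e-08) and Cyp2c29 4.82-fold (adjusted p = 4.18e-08). EGFR signalling is known to hold CAR in the cytoplasm of hepatocytes. The relation of these genes to the EGFR genes was not tested.

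Markers of the other liver cell types showed few calls. Cholangiocyte markers summed to 648 to 941 CPM in the CDAA-HFD group and 582 to 849 CPM in the BLT1i group with 0 of 7 called, and stellate cell and fibroblast markers to 2622 to 3117 and 2266 to 3051 CPM with 0 of 6 called. Endothelial markers summed to 319 to 391 and 362 to 421 CPM with 1 of 5 higher, Kdr (1.16-fold, edgeR adjusted p = 0.00344). Mast cell markers were at most 0.236 CPM in sum and none could be tested. The part of endothelial cells in the rise of Hbegf, a gene they also express, was not tested.

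Across mice, no pair of the 9 genes passed the test for moving together. Correlations were computed on log2 CPM after the group means were subtracted, over 20 mice, for all 36 pairs, with a permutation test within groups. Of the 36 pairs, 0 passed after adjustment by r or by rho, and 5 had an unadjusted p of r under 0.05. Between Egfr and the 5 ligands r lay from -0.07 to 0.23 over the 20 mice, and its lowest r was with Erbb2. Within groups and without the farthest mice r lay outside this range for some ligands. Egfr and Tgfa had r = -0.71 in the CDAA-HFD group (permutation p = 0.0203, adjusted p = 0.269) and 0.15 in the BLT1i group (permutation p = 0.690, adjusted p = 0.889), a difference that was not tested. Egfr and Hbegf had -0.07 (permutation p = 0.781, adjusted p = 0.971). Within the whole groups r was -0.02 in CDAA-HFD mice (permutation p = 0.948) and -0.10 in BLT1i mice (permutation p = 0.776). By rank, rho of this pair was -0.12 over the 20 mice (permutation p = 0.630, adjusted p = 0.941), -0.05 in CDAA-HFD and -0.09 in BLT1i mice. Without the 2 mice per group farthest from the median of Egfr, r was -0.56. It was -0.82 among the remaining BLT1i mice and -0.29 among the remaining CDAA-HFD mice, and these values within groups were not tested.

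**Figure D3:**
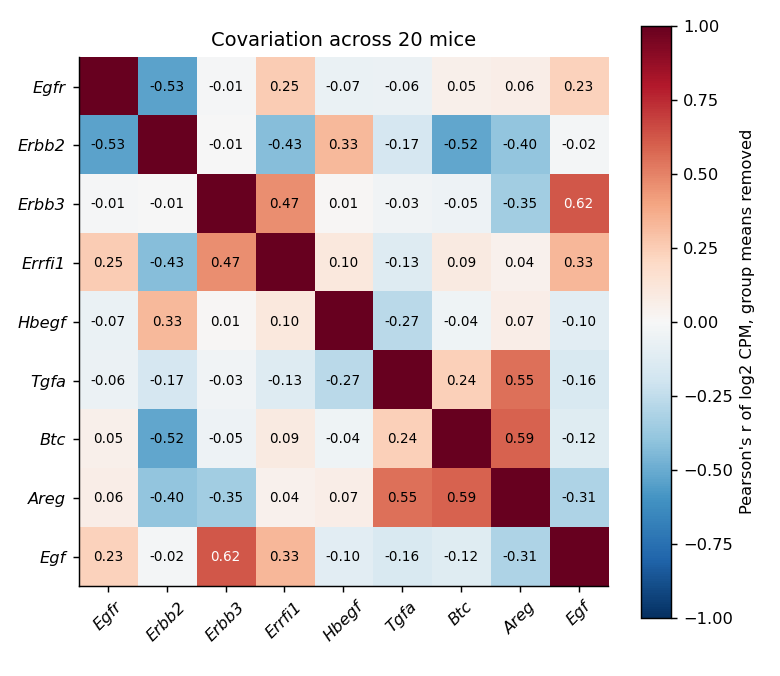
Pearson's r between the 9 genes over 20 mice, on log2 CPM with group means removed; red is positive, blue negative, and each cell prints r. The highest value is 0.62 (Erbb3 and Egf) and the lowest -0.53 (Egfr and Erbb2), and no pair passed after adjustment over 36 pairs.

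Erbb3 and Egf had the highest correlation (r = 0.62, permutation p = 0.00397, adjusted p = 0.118; rho = 0.61, p = 0.00415, adjusted p = 0.116). It was higher within the CDAA-HFD mice, with r = 0.83 (permutation p = 0.00184, adjusted p = 0.0662) and 0.23 in BLT1i mice (permutation p = 0.519, adjusted p = 0.889), a difference that was not tested. Without the 2 mice per group farthest from the median of Erbb3, r was 0.39, so the relation rests in part on those mice. Without mouse 80 it passed, at 0.74 (adjusted p = 0.0108). Egf had only 14 to 54 counts per mouse. Its coefficients of variation of 27.3% in CDAA-HFD and 29.0% in BLT1i mice compare with 17.2% and 18.4% from counting alone.

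Areg and Btc had r = 0.59 (permutation p = 0.00803, adjusted p = 0.118; rho = 0.61, p = 0.00653, adjusted p = 0.116), with 0.51 in CDAA-HFD and 0.66 in BLT1i mice, and 0.49 without the farthest mice. Without mouse 36 this pair passed, at 0.67 (adjusted p = 0.0468). Areg and Tgfa had r = 0.55 (permutation p = 0.00981, adjusted p = 0.118; rho = 0.57, p = 0.0110, adjusted p = 0.116), with 0.37 and 0.70 in the groups and 0.39 without the farthest mice. Hbegf was not part of any pair with an unadjusted p under 0.05, and its r with the other ligands ran from -0.27 (Tgfa) to 0.07 (Areg).

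Both negative pairs with an unadjusted p under 0.05 involved Erbb2. Egfr and Erbb2 had r = -0.53 (permutation p = 0.0191, adjusted p = 0.148; rho = -0.57, p = 0.0129, adjusted p = 0.116), with -0.54 in CDAA-HFD and -0.53 in BLT1i mice, and -0.48 without the farthest mice. Erbb2 and Btc had r = -0.52 (permutation p = 0.0205, adjusted p = 0.148; rho = -0.49, p = 0.0351, adjusted p = 0.253), and -0.54 without the farthest mice. Neither passed the adjustment over 36 pairs.

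The genes whose pattern over the 20 mice was most like that of each called gene, and of Egfr, are named as a description, again by r after removal of group means. These values are extremes of 13993 genes, are measured in the same libraries and have no p. For Errfi1 the values were the highest: Pck1, the gluconeogenic enzyme phosphoenolpyruvate carboxykinase, at 0.89, Lpin2, a phosphatidate phosphatase, at 0.89, Mfsd2a, a lysophospholipid transporter, at 0.88, Enc1 at 0.86 and Dnmbp at 0.86. The most opposite were Irs1, an insulin receptor substrate, at -0.82 and Ppp1r3c, a glycogen-targeting subunit of protein phosphatase, at -0.81. For Pck1, r was 0.90 in CDAA-HFD and 0.86 in BLT1i mice, and 0.78 without the 2 mice per group farthest from the median of Errfi1. Because Pck1 was picked by r over these same mice, high values within the groups are favoured and are no separate check. Pck1 itself was at 1255 CPM in the CDAA-HFD group and 1918 CPM in the BLT1i group (log2 fold change 0.61, edgeR adjusted p = 0.0441).

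For Hbegf the nearest genes were Zfp217, a zinc finger protein, at 0.75, the immediate early genes Fos at 0.74 and Junb at 0.71, Ptgis, prostacyclin synthase, at 0.73 and Man2a2, a mannosidase, at 0.72. For Fos, r was 0.77 in CDAA-HFD and 0.85 in BLT1i mice, which its choice by r over these same mice favours. After the immediate early score was removed, r was 0.06 for Fos and 0.19 for Junb. Both are members of that score, so a fall of their r was built in. Zfp217 then stood at 0.64, Man2a2 at 0.52 and Cgrrf1 at -0.49. The most opposite were Cgrrf1 at -0.73 and Ndc80, a kinetochore protein, at -0.70. Without the 2 mice per group farthest from the median of Hbegf, Man2a2 was at 0.28, Zfp217 at 0.49, Ptgis at 0.54, Fos at 0.69, Junb at 0.71, Cgrrf1 at -0.90 and Ndc80 at -0.73. Mouse 75 was the highest BLT1i mouse for Hbegf, Fos, Zfp217 and Man2a2, and without it r was 0.68 for Fos, 0.58 for Zfp217 and 0.55 for Man2a2.

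For Egfr the nearest were Sgo1, a protector of centromeric cohesion, at 0.80, Rnaseh1, a nuclease that cuts RNA paired with DNA, at 0.77, Smad9, a mediator of bone morphogenetic protein signals, at 0.74, Clcc1 at 0.74 and Gpr176 at 0.73. The most opposite were Adcy4, an adenylyl cyclase, at -0.76 and Tbxa2r, the thromboxane receptor, at -0.75. Sgo1 stood at 1.88 and 1.69 CPM, and its r with Egfr was 0.57 without the 2 mice per group farthest from the median of Egfr, where Smad9 was lowest at 0.49 and Tbxa2r stood at -0.72. For Erbb3 the nearest were Slc25a42, a mitochondrial carrier of coenzyme A, at 0.83, Gne, an enzyme of sialic acid synthesis, at 0.78, Tbc1d30 at 0.78, Kcnn2, a potassium channel, at 0.75 and Tnrc6a at 0.74. The matrix genes Fbln2 at -0.79 and Col8a1 at -0.78 were the most opposite. Without the 2 mice per group farthest from the median of Erbb3 all 7 values were closer to 0: Slc25a42 was at 0.62, Gne at 0.57, Tnrc6a at 0.44, Tbc1d30 at 0.41, Kcnn2 at 0.33, Fbln2 at -0.46 and Col8a1 at -0.29.

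**Figure D4:**
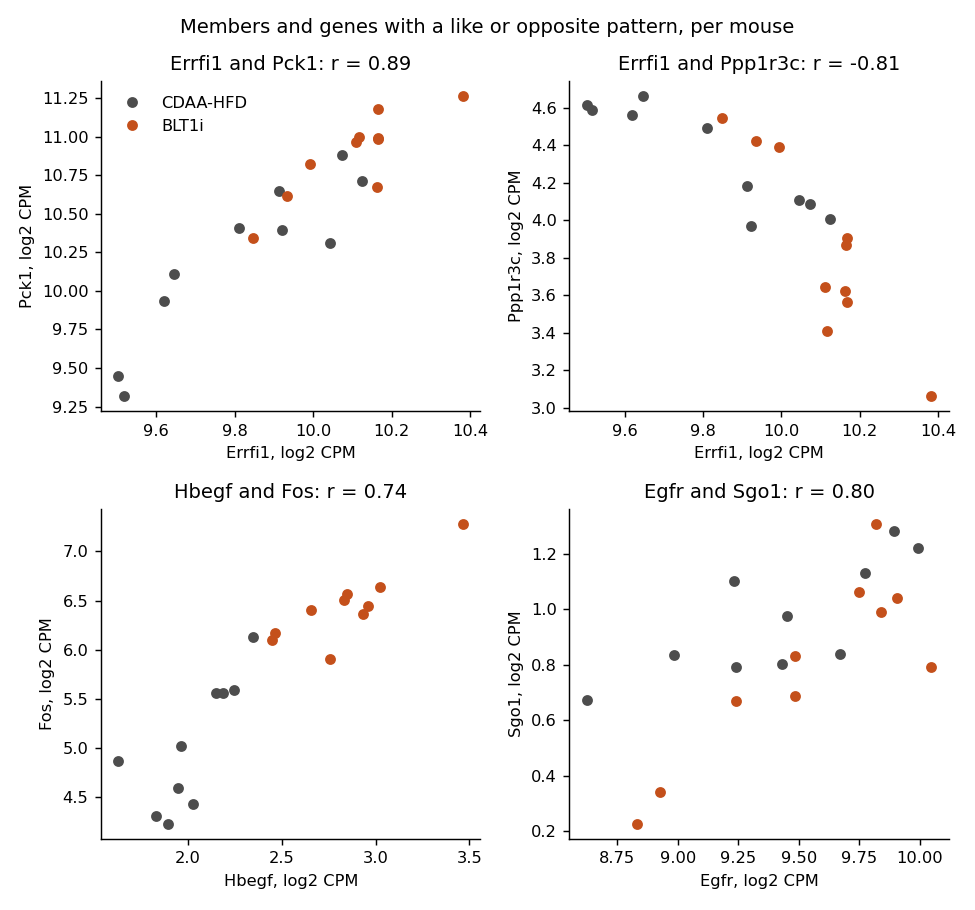
Log2 CPM of Errfi1, Hbegf and Egfr in each mouse (grey CDAA-HFD, orange BLT1i) against genes with a like or opposite pattern, where r is over 20 mice with group means removed. Errfi1 follows Pck1 at 0.89 and runs against Ppp1r3c at -0.81, Hbegf follows Fos at 0.74 and Egfr follows Sgo1 at 0.80.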

How the data were processed

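RNA sequencing was done on livers of 20 mice. Each mouse has 2 lanes in the labels and 1 column in the tables, and was taken as the replicate. Per the labels' protocols libraries were made from total RNA with removal of ribosomal RNA. The authors deposited raw counts per gene, which are whole numbers and were used for all main tests. They also deposited FPKM values rounded to whole numbers, treated here as a score and used for levels per length and for alternatives. Of these, 43.3% were 0. Per the submitters' processing notes the build was GRCm39. Aligner, counter and strand setting were not given in the sources used here. Of 21500 identifiers, 21457 were matched to a symbol.

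The filterByExpr filter left 13993 genes, of which 788 were called (511 higher, 277 lower). They were scaled by TMM and tested with the robust quasi-likelihood F-test of edgeR 4.0.16 in R 4.3.3, two-sided, without covariates, with Benjamini-Hochberg adjustment and a threshold of 0.05. Correlations used log2 CPM with a prior count of 2 and 100000 permutations within groups. At these depths counting error is wide for Egf and Areg. The printed confidence intervals are those of the edgeR fit and include the spread between mice, and the coefficients of variation given as counting error do not. No mouse repeated another: over 90 same-group pairs, the chi-square of their counts was 6.17 to 30.9 per degree of freedom. The labels name separate mice and give no batch. On simulated counts over 13960 genes for BLT1i against CDAA-HFD, 84 of 100 genes changed by 0.5 and 99 of 100 changed by 1 on the log2 scale were recovered, with 11 false among 194 calls. Changes smaller than 0.5, the size seen for every member but Hbegf, were not simulated, so recovery at those sizes is not known.

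The members, gene lists, motifs and named genes were chosen with earlier results of these data known, and the motifs after the results here as well. All members were named, and each list contributed its 4 genes of smallest p, or 2 if no member passed, and for Egfr and each called member the 5 genes with the highest and the 2 with the lowest r, leaving out predicted genes. Ereg, Nrg1, Cd8a and Kdr were named after their values were seen. Alternatives were RLE, upper-quartile and library-total scaling, other filters, DESeq2 1.42.0, limma-voom (each mouse weighted) and limma-trend of limma 3.58.1 (on log2 of rounded FPKM with 1 or 0.1 added), 1 surrogate variable (sva 3.50.0), the immediate early score as a covariate, and each mouse left out. Genome coordinates are those of the GRCm38.p6 promoter table, since no annotation of the deposited build was used.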

Additional observations from a re-analysis of the deposited data

Results flagged for a closer look

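In 118 sets of a gene in a group of 10 mice, 9 had a mouse that stood apart from the others by Dixon's criterion, which chance meets in about 1 in 20 sets. BLT1i mouse 75 was the highest in 4 of them: Hbegf at 10.97 CPM (next mouse 8.03), Fos at 156 CPM (next 99.2), Zfp217 at 53.3 CPM (next 47.1) and Man2a2 at 133 CPM (next 121). Fos, Zfp217 and Man2a2 were included because their r with Hbegf was among the highest, which favours a shared highest mouse. The sets are therefore not independent. Without mouse 75 Hbegf was still called, and its range over all mice left out in turn is given in the report. BLT1i mouse 76 was the lowest for Tgfa, at 55.2 CPM (next 66.3), and leaving it out brought Tgfa past the threshold. Gpr176 was flagged in both groups, with CDAA-HFD mouse 32 lowest at 3.95 CPM (next 5.23) and BLT1i mouse 80 highest at 7.22 CPM (next 6.25). CDAA-HFD mouse 36 was the lowest for Cblc, at 16.6 CPM (next 22.5). CDAA-HFD mouse 34 was the highest for Dusp8, at 18.9 CPM (next 14.4).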

How the results depend on the processing

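Without any 1 mouse, 565 to 889 genes were called (397 to 559 higher, 168 to 342 lower; 168 without mouse 79 and 171 without mouse 33), 1 to 3 of the 9 genes (1 without mouse 33, 34, 35 or 80), and 0 to 1 of the 36 pairs. The lists gave 0 to 1 adaptors, 13 to 14 immediate early genes, 1 to 3 MAP kinase feedback genes, 2 shedding genes, 7 CAR and PXR targets and 0 negative regulators and other ErbB genes. Main scaling called 511 genes higher and 277 lower. Upper-quartile scaling gave 443 and 401, and library totals 391 and 540. DESeq2 gave 421 lower and limma-trend on rounded FPKM 184, 181 and 184 (plus 1, plus 0.1, plus 1 filtered). With the immediate early covariate 78 genes passed (65 higher, 13 lower), with 0 members, 1 shedding gene and 0 immediate early genes. MAP kinase feedback calls were 2 with RLE scaling, the 1 CPM filter or 1 surrogate variable, 4 with DESeq2 and 0 in each FPKM fit. Adaptor calls were 2 with upper-quartile scaling or library totals, and negative regulator calls 1 with library totals or limma-voom. Areg turned to -0.10, -0.35 and -0.10 on the FPKM scales and -0.00126 without mouse 72 (up to 0.25 without another), and Egfr to -0.031, Nrg4 to -0.048 and Dusp5 to -0.031 under the covariate. The cause was not tested. No paired analysis was possible because the mouse numbers differ between the groups. Depth limits Egf and Areg most.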
